A study of Mus musculus with 21 samples.

Results

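The genes of the mouse major histocompatibility complex carry symbols that begin with H2-. All rows of the deposited RNA-seq table with such a symbol were taken, which gave 42 genes of 37620. By symbol, 2 were classical class I genes (H2-K1 and H2-D1), 27 were class Ib genes (the H2-Q, H2-T and H2-M series and H2-Bl) and 10 were class II genes. The other 3, H2-Ke2, H2-Ke6 and H2-K2, lie among them and were kept apart. All 42 had a position in the annotation of NCBI build 37 (mm9), within 3.54 Mb of chromosome 17 at chr17:34075766-37620497.

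RNA-seq was done on enriched germ cells of C57BL/6J (B6) mice at 12 days post-partum (dpp), an age at which the testis is rich in spermatocytes entering meiosis. Testes were digested with collagenase and trypsin to obtain the cells, and the labels call them spermatocytes and wild type. The 12 libraries carry 4 sample numbers (186wt, 343wt, 444wt, 456wt), 3 libraries to a number, and all share 1 strain, age and condition. Means of the 3 libraries were formed for each number, and the 4 numbers served as replicates (n = 4). The paper describes RNA of 4 germ cell replicates. The sources do not say whether the 3 libraries of a number came from separate animals or from 1 RNA. The limma p-values and SE below set differences between sample numbers against the spread of libraries within a number. They speak for these samples only.

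Class I molecules display peptides made inside the cell to CD8 T cells, and consist of a heavy chain held by beta-2 microglobulin. Class II molecules are pairs of an alpha and a beta chain that display peptides from engulfed material to CD4 T cells, and are made mainly by macrophages, dendritic cells and B cells. Class Ib genes resemble class I but vary little between individuals, and many are expressed in few tissues. The testis is known as a site of immune privilege, and its developing germ cells are known for low class I display.

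The steps of the lowest FPKM values (fragments per kilobase of transcript, scaled to sequencing depth) put the depth at about 12.6 to 17.7 M fragments per library. A single fragment on 1 kb of effective transcript length was then worth 0.0564 to 0.0791 FPKM. A count of 0 in all 12 libraries allows up to 3 fragments, or 0.0167 FPKM, for 1 kb of effective length, counting error only. Markers of meiotic prophase were abundant, with 8 of 8 at 1 FPKM or more, and their sum ran from 309 to 519 FPKM between sample numbers. Those of spermatogonia summed to 544 to 742 FPKM. Markers of other testis cells were present as well: the summed FPKM ran from 2377 to 4235 for Sertoli cells, 253 to 1112 for peritubular myoid cells, 19.8 to 46.8 for endothelial cells, 16.1 to 110 for Leydig cells and 15.3 to 63.9 for macrophages. Markers of dendritic and B cells summed to 1.37 to 1.63 FPKM and those of T cells to 1.14 to 1.97 FPKM. These were bulk libraries, in which fewer cells of a type and less RNA per cell cannot be told apart. The lists differ in length, and single genes lead some sums: Clu (mean 1844 FPKM) for Sertoli cells and Acta2 (473) for myoid cells. The sums thus do not compare the amounts of cell types with one another.

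The upstream sequences show what the most expressed class I and Ib genes share and where they differ. The stretches below are 140 bases from the RefSeq promoter windows (GRCm38.p6), 5′ to 3′ on the gene's strand, and each starts 40 bases before the interferon response letters. Capitals mark the letters searched for on both strands: the 11 letters of the class I enhancer A (the first run of capitals in H2-K1 and H2-D1), GAANNGAAA (interferon response), TGACG (X2 box) and CCAAT (Y box). TGACG read on both strands can share bases with itself, and the other letter groups have no fixed overlap.
H2-K1, chr17:34000338-34000477, minus strand: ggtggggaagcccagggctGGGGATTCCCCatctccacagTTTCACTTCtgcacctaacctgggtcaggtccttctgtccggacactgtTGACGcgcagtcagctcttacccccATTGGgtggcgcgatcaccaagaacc
H2-D1, chr17:35262904-35263043, plus strand: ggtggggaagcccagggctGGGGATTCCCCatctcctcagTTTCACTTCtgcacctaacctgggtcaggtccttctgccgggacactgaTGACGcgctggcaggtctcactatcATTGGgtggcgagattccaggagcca
H2-Q4, chr17:35379424-35379563, plus strand: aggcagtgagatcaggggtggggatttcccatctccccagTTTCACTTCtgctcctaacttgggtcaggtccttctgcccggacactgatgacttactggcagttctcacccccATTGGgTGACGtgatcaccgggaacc
H2-Q10, chr17:35469894-35470033, plus strand: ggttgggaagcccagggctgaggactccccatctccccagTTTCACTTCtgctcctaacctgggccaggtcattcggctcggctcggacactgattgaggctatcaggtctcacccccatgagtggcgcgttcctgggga

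H2-K1 and H2-D1 held all 4 letter groups at the same positions, starting at bases 20, 41, 90 and 115 of the stretch, and their stretches were 88.6% identical. H2-Q4 was 82.9% identical to H2-K1 and held all but the enhancer A letters. Its TGACG started at base 121, after the CCAAT letters at base 115, and was not found at base 90. H2-Q10 was 79.7% identical to H2-K1 over 143 aligned columns and held only the interferon response letters. The stretch ends 5 bases before the annotated start in H2-K1 and 56 bases before it in H2-Q10, so distances to the start differ between genes. These are matches of letters, not measured binding.

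For class II, 140 bases directly upstream of the start are shown for an alpha chain gene and a beta chain gene of the complex, to compare with class I.
H2-Aa, chr17:34287824-34287963, minus strand: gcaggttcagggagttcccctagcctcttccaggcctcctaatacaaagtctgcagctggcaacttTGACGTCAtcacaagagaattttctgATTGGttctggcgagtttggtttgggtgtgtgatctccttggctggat
H2-Eb1, chr17:34305727-34305866, plus strand: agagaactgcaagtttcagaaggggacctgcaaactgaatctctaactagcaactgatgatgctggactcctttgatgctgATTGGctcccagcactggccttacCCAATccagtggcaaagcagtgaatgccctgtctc

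Windows were found by symbol for 31 of the 42 members, among 27025 genes with a window of the same length. The 250 bases upstream held CCAAT in 28 of the 31 members and in 37.5% of all genes. GAANNGAAA was found in 8 of the 31 members, all of class I or Ib, and in 7.30% of all genes. The enhancer A letters were found in 9 genes of the table (0.0333%), of which 3 were H2-K1, H2-D1 and H2-Q6. TGACG was found in 12 of 31 members and in 19.8% of all genes, and among the 8 class II windows it was found in that of H2-Aa. Of class I and Ib genes at 1 FPKM or more, 7 of 10 with a window held GAANNGAAA, against 1 of 10 below 0.1 FPKM (H2-M2). CCAAT was held by 9 of 10 in both sets, TGACG by 6 of 10 against 5 of 10, and the enhancer A letters by 3 of 10 against 0 of 10. None of these contrasts was tested. The members are not independent counts: the printed class I and Ib stretches were 74.8% to 88.6% identical in pairs, and the set below 0.1 FPKM was mostly H2-M genes.

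Class I was the most abundant class by summed FPKM, followed by class Ib and class II. The class I sum was 161 FPKM in 186wt, 100.4 in 343wt, 149 in 444wt and 141 in 456wt (138 ± 26.1, SD, n = 4). The class Ib sum was 80.5 ± 3.29 FPKM (SD, n = 4), although 27 genes share it. The class II sum was 8.26 ± 0.450 FPKM (SD, n = 4) over 10 genes, and lay below both other sums in 4 of 4 sample numbers.

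The ratio of class I to class II was 16.4-fold (log2 ratio 4.04 ± 0.30, SD, n = 4), from 12.5-fold in 343wt to 20.4-fold in 186wt. Class I exceeded class Ib by 1.69-fold (log2 ratio 0.75 ± 0.28, SD, n = 4), with 1.27-fold in 343wt and 1.79- to 1.89-fold in the others. Class Ib exceeded class II by 9.75-fold (log2 ratio 3.29 ± 0.12, SD, n = 4). Each order held in 4 of 4 sample numbers. The two-sided exact sign-flip permutation test over 4 sample numbers gave p = 0.12 for each of the 3 ratios (2 of 16 sign patterns), the smallest it can give, and 0.12 after Benjamini-Hochberg adjustment, so this design cannot reach 0.05.

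The classes differed in how the sum was made up. Of the summed FPKM of class I, Ib and II, H2-K1 took 44.9%, H2-D1 15.9% and H2-Q10 15.2%. H2-Q10 and H2-Q4 made 64.0% of the class Ib sum. The median member stood at 0.214 FPKM in class Ib and 0.262 FPKM in class II, against 0.195 FPKM over all 37620 genes and 3.01 FPKM over protein-coding genes. With the median of the members at 0.1 FPKM or more in place of the sum, the log2 ratio of class I to class Ib became 5.14 and that of class Ib to class II 1.11.

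Of the 42 members, 27 had a mean of at least 0.1 FPKM (64.3%, against 55.3% of all genes), 17 reached 1 FPKM and 6 reached 10 FPKM. The 27 were 2 of 2 class I, 16 of 27 class Ib, 6 of 10 class II and 3 of 3 other members. Of protein-coding members 62.9% (22 of 35) reached 0.1 FPKM, against 74.3% (113 of 152) of the other protein-coding genes within the same 3.54 Mb. The plot of member levels shows these steps.

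**Figure D1:**
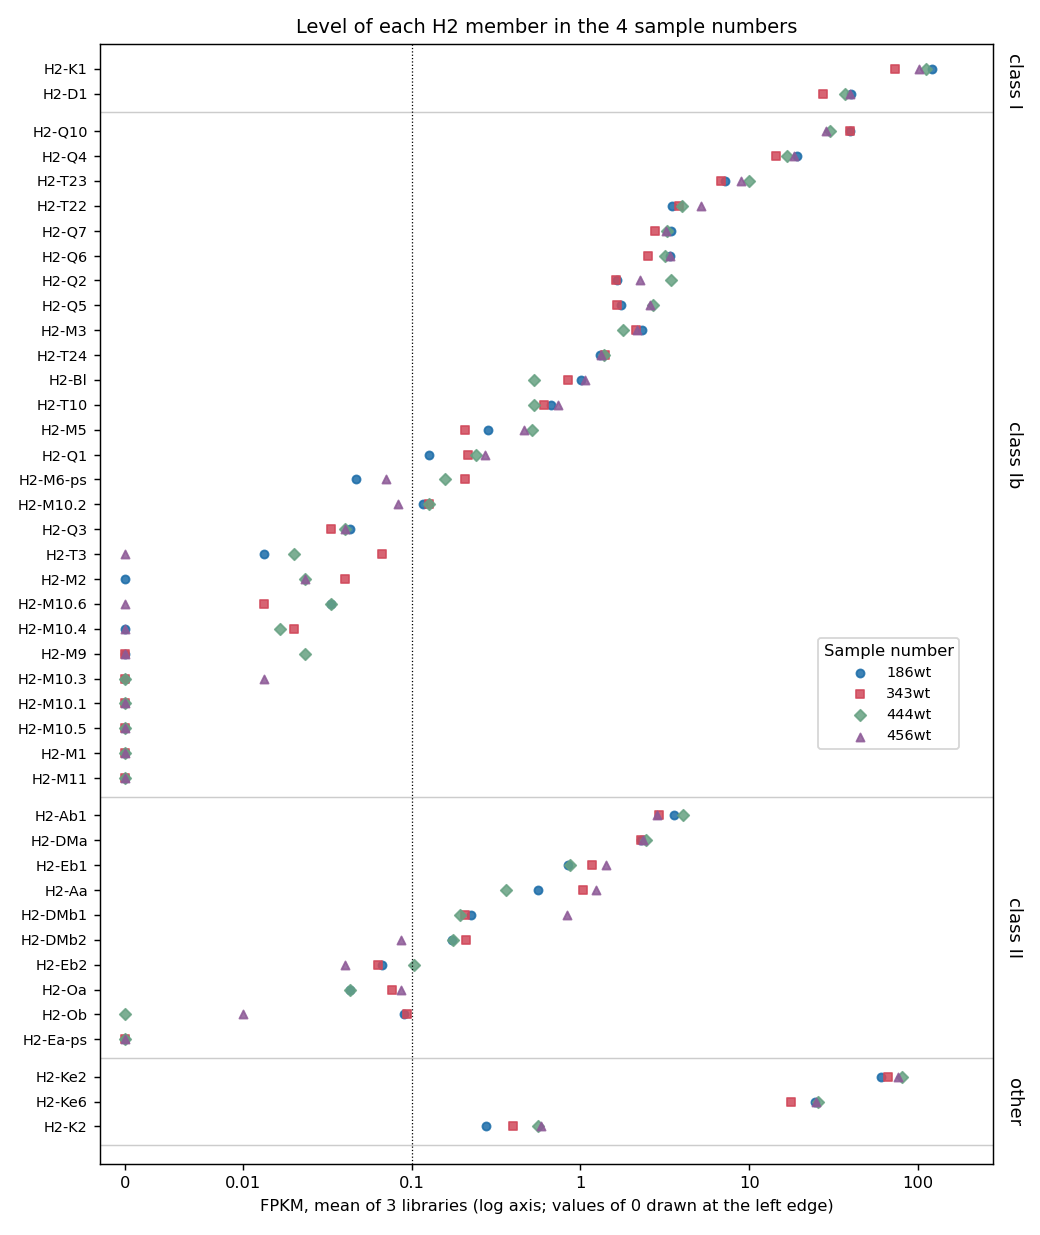
Each row is an H2 member and each point is the mean FPKM of 3 libraries of a sample number, on a log axis with values of 0 at the left edge and a dotted line at 0.1 FPKM. Class I members lie at 27.3 to 121 FPKM, class Ib spreads from 0 to 39.5 FPKM and no class II member exceeds 4.04 FPKM.

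H2-K1 (chr17:34132962-34137278, minus strand) encodes a classical heavy chain and was the most abundant member. Its libraries gave 120.31, 119.88 and 121.51 FPKM in 186wt, 75.38, 69.79 and 74.06 in 343wt, 111.68, 112.02 and 112.10 in 444wt, and 103.46, 97.11 and 103.95 in 456wt. The mean was 102 ± 20.7 FPKM (SD, n = 4), above 98.1% of all genes. Values of 343wt lay below all others, and the 186wt and 343wt libraries did not overlap.

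H2-D1 (chr17:35399675-35404444, plus strand) encodes the second classical heavy chain of this strain. It gave 42.33, 39.95 and 37.57 FPKM in 186wt, 25.40, 27.30 and 29.26 in 343wt, 33.57, 38.39 and 38.28 in 444wt, and 40.90, 42.07 and 36.21 in 456wt. The mean was 35.9 ± 5.93 FPKM (SD, n = 4), and 343wt was again the lowest. H2-K1 exceeded H2-D1 in all 4 sample numbers, by 2.56- to 3.05-fold. The coding sequences of the pair are 90.3% identical. No word of 100 bases of the longest H2-K1 transcript recurs exactly in another gene, and 4.64% of those of H2-D1 do. The authors' alignment allowed a mismatch in a read, so reads beyond these exact words may be shared. The effect of such reads on the levels was not tested.

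H2-Q10 (chr17:35607034-35611508, plus strand), known as a secreted class Ib molecule of the liver, was at the level of H2-D1. Its libraries gave 38.30, 39.75 and 40.20 FPKM in 186wt, 40.72, 40.19 and 37.64 in 343wt, 29.67, 30.46 and 29.80 in 444wt, and 28.67, 28.04 and 29.03 in 456wt. Libraries of 186wt and 343wt lay above those of 444wt and 456wt with no overlap. H2-D1 was above H2-Q10 in 3 of 4 sample numbers and below it in 343wt, where H2-Q10 was at 39.5 and H2-D1 at 27.3 FPKM. The ratio of H2-Q10 to H2-K1 was 0.541 in 343wt and 0.268 to 0.327 in the others. Of its words of 100 bases, 8.80% recur in another gene, mainly H2-Q7.

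H2-Q4 (chr17:35516562-35522235, plus strand), a class Ib gene of the same series, was next at 17.2 ± 2.08 FPKM (SD, n = 4). Its sample means were 19.2 in 186wt, 14.5 in 343wt, 16.7 in 444wt and 18.4 in 456wt. The order of the 4 sample numbers was thus led by 186wt with 343wt last, as for H2-K1 and H2-D1. H2-Q6 and H2-Q7, which encode Qa-2 molecules, were at 3.13 ± 0.421 and 3.18 ± 0.281 FPKM (SD, n = 4). H2-Q6 holds the enhancer A, interferon response and CCAAT letters upstream. H2-Q10, at 34.4 FPKM, holds the interferon response letters alone. H2-K1 and H2-D1, at 102 and 35.9 FPKM, hold all the letter groups searched for. Whether letters go with level was not tested. H2-Q6 and H2-Q7 are 94.5% identical over their coding sequences, and 8.36% of the 100-base words of H2-Q6 recur in H2-Q7. How the counting split such fragments was not tested, so the levels of the pair are uncertain.

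H2-T23, which encodes Qa-1, a ligand of inhibitory natural killer cell receptors, was at 8.23 ± 1.49 FPKM (SD, n = 4). It gave 6.79, 7.18 and 7.53 FPKM in 186wt, 6.63, 6.75 and 7.06 in 343wt, 10.12, 10.36 and 9.38 in 444wt, and 9.46, 8.39 and 9.13 in 456wt. Libraries of 444wt and 456wt lay above those of 186wt and 343wt, the reverse of H2-Q10. H2-T22, a ligand of some gamma delta T cells, was at 4.11 ± 0.724 FPKM and H2-T24 at 1.35 ± 0.0459 FPKM (SD, n = 4). Transcript A930015D03Rik lies on the opposite strand of all 3, at 0.590 and 0.0633 FPKM in its 2 rows, and the strand setting of the counting is not stated.

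H2-M3, which presents formylated bacterial peptides, was at 2.11 ± 0.230 FPKM (SD, n = 4), the highest of 13 H2-M genes. H2-Q2 was at 2.24 ± 0.856 and H2-Q5 at 2.16 ± 0.549 FPKM. The annotation names the loci of the H2-Q1 and H2-Q5 rows H2-Q2 and H2-Q8, so these identities are uncertain. The 6 H2-M10 genes, known from vomeronasal neurons, summed to 0.146 ± 0.0346 FPKM (SD, n = 4), and H2-M10.2 alone reached 0.1 FPKM. H2-M10.1, H2-M10.5, H2-M1 and H2-M11 were at 0 in all 12 libraries.

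In the order of levels at 1 FPKM or more, the sample ranges of neighbours overlapped for 10 of 16 pairs. The ranges did not overlap between H2-Ke2 and H2-D1, H2-Q10 and H2-Ke6, H2-Q4 and H2-T23, H2-T23 and H2-T22, H2-Q6 and H2-DMa, or H2-M3 and H2-T24. Members above 1 FPKM lay in blocks, as the plot along the cluster shows.

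**Figure D2:**
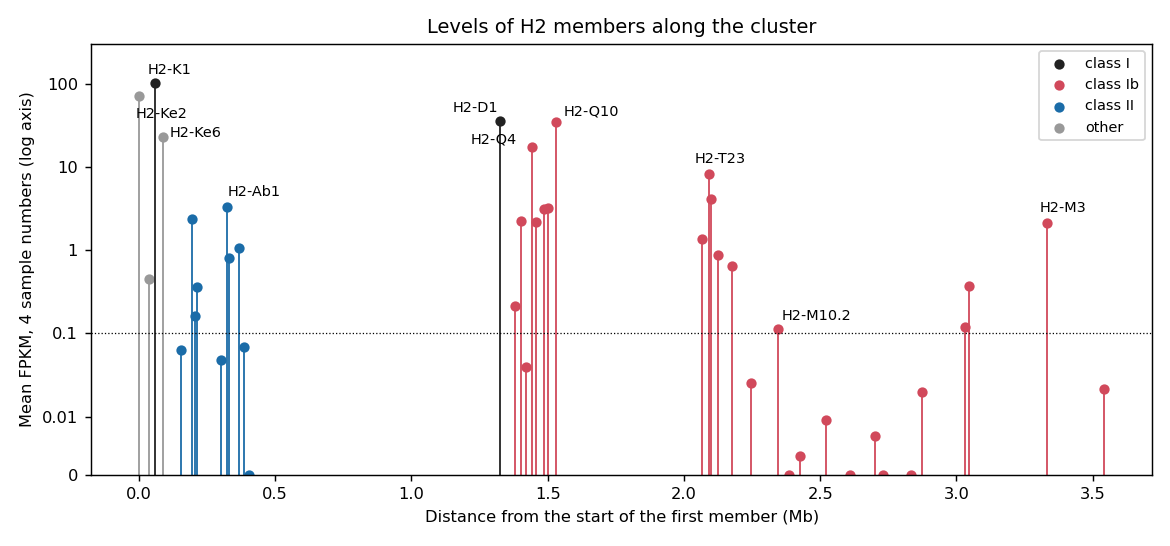
Mean FPKM of each member over 4 sample numbers (log axis, dotted line at 0.1 FPKM) against the distance of its start from the first member in Mb, coloured by class. The class II block, the block from H2-D1 to H2-Q10 and the H2-T block hold members above 1 FPKM, and most H2-M genes lie below 0.1 FPKM, with H2-M3 at 2.11 FPKM.

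H2-Ab1 (chr17:34400154-34406363, plus strand), the beta chain of the I-A molecule, was the highest class II gene at 3.34 ± 0.573 FPKM (SD, n = 4). It gave 3.46, 3.28 and 3.99 FPKM in 186wt, 2.62, 2.96 and 3.15 in 343wt, 4.28, 3.73 and 4.10 in 444wt, and 3.40, 2.55 and 2.54 in 456wt. The 444wt libraries lay above those of 343wt and 456wt.

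H2-Aa (chr17:34406276-34424772, minus strand), the alpha chain that pairs with it, was at 0.795 ± 0.404 FPKM (SD, n = 4). It gave 0.51, 0.52 and 0.65 FPKM in 186wt, 1.18, 1.25 and 0.66 in 343wt, 0.52, 0.30 and 0.26 in 444wt, and 1.26, 1.31 and 1.12 in 456wt. The order was the reverse of H2-Ab1 at its ends: 444wt was lowest and 456wt highest. The ratio of H2-Ab1 to H2-Aa was 6.14 to 6.78 in the libraries of 186wt, 2.22 to 4.77 in 343wt, 8.23 to 15.8 in 444wt and 1.95 to 2.70 in 456wt. The ratios of 444wt did not overlap those of the others. The genes overlap by 88 bases at their ends, on opposite strands.

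H2-Eb1, the beta chain of the I-E molecule, was at 1.07 ± 0.272 FPKM (SD, n = 4), and H2-Ea-ps, the partner alpha chain gene that is defective in this strain, was at 0 in all 12 libraries. The 3 chains H2-Ab1, H2-Aa and H2-Eb1 together gave 4.98 FPKM in 186wt, 5.11 in 343wt, 5.26 in 444wt and 5.48 in 456wt, a narrow range made of different shares. H2-DMa, a chain of the peptide exchange factor of class II, was at 2.35 ± 0.0836 FPKM (SD, n = 4). Its partners H2-DMb1 and H2-DMb2 were at 0.363 ± 0.310 and 0.162 ± 0.0527 FPKM, are 95.9% identical, and 13.8% of the 100-base words of H2-DMb1 recur in H2-DMb2, so their split is uncertain. Their sum was 0.397 FPKM in 186wt, 0.417 in 343wt, 0.370 in 444wt and 0.913 in 456wt. H2-Oa and H2-Ob, chains of the inhibitor of that exchange factor, were at 0.0625 and 0.0483 FPKM and H2-Eb2 at 0.0683 FPKM, each worth no more than a few fragments per library.

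The 3 members outside the classes include genes that are no histocompatibility genes by function. H2-Ke2, a subunit of the chaperone prefoldin, was at 70.8 ± 8.80 FPKM and H2-Ke6, a hydroxysteroid dehydrogenase, at 23.2 ± 3.72 FPKM (SD, n = 4). H2-Ke6 shares 92.0% of its words of 100 bases with the overlapping transcript Gm20427, listed at 1.39 FPKM. H2-K2, a pseudogene, was at 0.454 ± 0.145 FPKM.

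The question of the tests was which members differed between the 4 sample numbers by more than their libraries spread. A moderated F-test was run with limma on log2(FPKM + 0.1) over all 20795 genes whose mean reached 0.1 FPKM. Genes with an adjusted p (Benjamini-Hochberg) under 0.05 were called. Each adjusted p below is that of the F-test over all sample numbers in the fit, not of a pair. The differences beside them, with SE, are between the highest and lowest sample number, picked after the values were seen. Of the 27 members tested, 12 were called (44.4%), against 58.2% of all genes tested. The called members were H2-K1 and H2-D1 of class I, 5 of 16 class Ib genes, 3 of 6 class II genes, H2-Ke2 and H2-Ke6. Of members at 10 FPKM or more 6 of 6 were called (84.5% of all such genes), of those from 1 to 10 FPKM 4 of 11 (64.0%) and of those from 0.1 to 1 FPKM 2 of 10 (19.2%). The median difference between the highest and lowest sample number was 0.55 log2 units over the members tested and 0.55 over all genes tested.

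Class I was lowest in 343wt. H2-K1 was higher in 186wt than in 343wt by 0.72 ± 0.03 log2 units (SE; limma F-test adjusted p = 1.65e-08) and H2-D1 by 0.55 ± 0.07 (adjusted p = 0.000165). Without 343wt the limma adjusted p of H2-D1 was 0.315, that of H2-Ke6 was 0.691 and that of H2-Q4 was 0.0526, while H2-K1 was still called. Of the 12 called members, 6 had their lowest value in 343wt and 5 their highest in 444wt. Over all 12107 called genes, 4006 were lowest in 343wt and 4522 were highest in 444wt. The summed meiotic prophase markers were also lowest in 343wt, at 309 FPKM against 368 to 519, as were the peritubular myoid markers, at 253 against 533 to 1112. The Sertoli, Leydig, macrophage and dendritic and B cell sums were highest in 343wt, at 4235, 110, 63.9 and 1.63 FPKM. The other lists were neither highest nor lowest there. The part of these lists in the class I difference was not tested.

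In class Ib, H2-Q10 was higher in 343wt than in 456wt by 0.47 ± 0.03 log2 units (limma adjusted p = 2.44e-07) and H2-Q4 was higher in 186wt than in 343wt by 0.40 ± 0.06 (adjusted p = 0.000411). H2-T23 was higher in 444wt than in 343wt by 0.54 ± 0.06 (adjusted p = 4.13e-05) and H2-Q2 by 1.07 ± 0.18 (adjusted p = 0.000872). H2-T22 was higher in 456wt than in 186wt by 0.57 ± 0.15 (adjusted p = 0.0338). The call of H2-Q2 was lost without 444wt (limma adjusted p = 0.136). That of H2-T22 was lost without 456wt (0.573), without any of its libraries 1 to 3 (0.0992, 0.0573 and 0.117) and without library 1 or 2 of 186wt (0.0645 and 0.0587). The Sertoli markers summed to 4092 FPKM in 186wt and 4235 in 343wt, against 2377 in 444wt and 2539 in 456wt, the same split of sample numbers as H2-Q10. The spermatogonia markers summed to 544 and 565 FPKM in 186wt and 343wt, against 742 in 444wt and 672 in 456wt, the same split as H2-T23. The part of either list was not tested. The pseudogene H2-M6-ps was at 0.0467 FPKM in 186wt and 0.207 in 343wt, the widest class Ib range on log2(mean FPKM + 0.1), at 1.06 against 1.04 for H2-Q2. On the scale of the test H2-Q2 was the wider, and H2-M6-ps was not called (limma adjusted p = 0.202).

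In class II, H2-Aa was higher in 456wt than in 444wt by 1.57 ± 0.26 log2 units (limma adjusted p = 0.00113), while H2-Ab1 was higher in 444wt than in 456wt by 0.51 ± 0.13 (adjusted p = 0.0126). H2-DMb1 was higher in 456wt than in 444wt by 1.64 ± 0.50 (adjusted p = 0.0455), with overlapping libraries of 0.29 to 1.16 and 0.05 to 0.37 FPKM. The call of H2-Ab1 was lost without 444wt (limma adjusted p = 0.124). That of H2-DMb1 was lost when any of 10 single libraries was left out (adjusted p = 0.0541 to 0.208, the highest without library 3 of 456wt), and without 343wt (0.0595) or 456wt (0.847). The other 3 class II genes tested, H2-DMa, H2-Eb1 and H2-DMb2, had adjusted p of 0.859, 0.135 and 0.899. The plot of the 12 libraries shows the spread behind these calls.

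**Figure D3:**
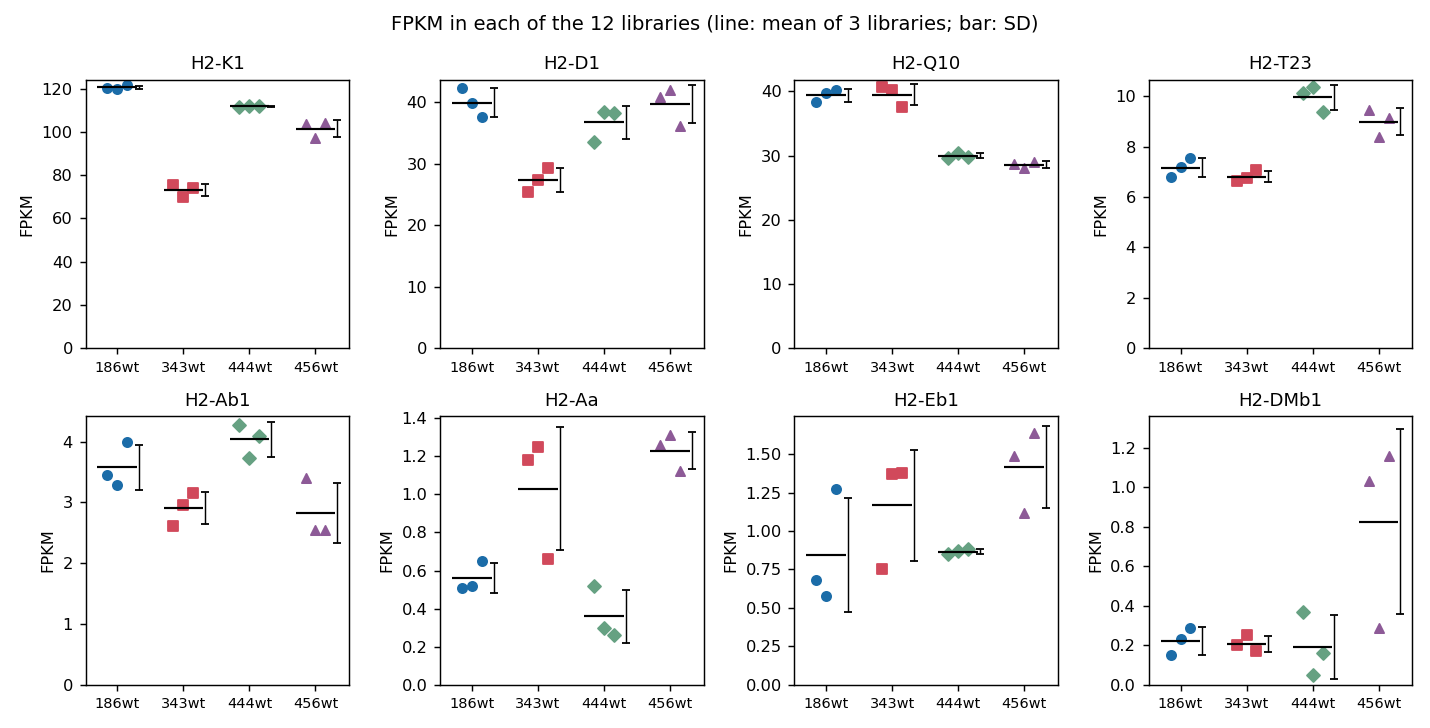
FPKM of 8 members in each of the 12 libraries, by sample number, on linear axes from 0, with the mean of 3 libraries as a line and the SD as a bar. H2-K1 and H2-D1 are lowest in 343wt, H2-Q10 and H2-T23 split the sample numbers in opposite ways, and H2-Ab1 and H2-Aa have opposite highest and lowest sample numbers among 444wt and 456wt.

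The partners of these molecules were taken from a list of 35 symbols, found as 37 rows. Of its 34 rows tested, 25 were called (73.5%, against 58.2% of all genes tested). By level, 16 of 19 rows at 10 FPKM or more were called (84.5% of all such genes), 8 of 12 from 1 to 10 FPKM (64.0%) and 1 of 3 from 0.1 to 1 FPKM (19.2%), shares near those of all genes. Of the 25 called, 13 had their lowest value in 444wt (52.0%, against 24.0% of all called genes). By group, 7 of 9 genes of class I assembly, 3 of 6 rows of the immunoproteasome, 4 of 4 genes of class II loading, 7 of 10 regulators and 4 of 5 class I-like genes outside the H2 symbols were called.

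B2m, the light chain of class I and most class Ib molecules, was at 84.5 FPKM in 186wt, 87.0 in 343wt, 52.0 in 444wt and 84.8 in 456wt. It was higher in 343wt than in 444wt by 0.74 ± 0.04 log2 units (limma adjusted p = 9.72e-08), and the adjusted p was 0.639 without 444wt. Its lowest sample number was thus not that of the heavy chains. The ratio of H2-K1 plus H2-D1 to B2m, both per length, was 1.90 in 186wt, 1.15 in 343wt, 2.86 in 444wt and 1.67 in 456wt, and single libraries gave 1.10 to 1.22 in 343wt and 2.68 to 2.95 in 444wt.

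Transcript levels of the peptide loading complex were uneven, and the make-up of the protein complex was not measured. Tapbp (tapasin) was at 106 ± 19.7 FPKM (SD, n = 4), while the peptide transporter chains Tap1 and Tap2 were at 2.44 ± 0.673 and 2.49 ± 0.492 FPKM. The general chaperones Calr, Pdia3 and Canx were at 552, 310 and 161 FPKM, and the trimming peptidase Erap1 at 16.3 FPKM. Tapbp was higher in 186wt than in 444wt by 0.52 ± 0.03 log2 units (limma adjusted p = 5.72e-08), and Tap1 was higher in 456wt than in 444wt by 0.79 ± 0.14 (adjusted p = 0.00103).

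The immunoproteasome subunits Psmb8 and Psmb9 were low, at 1.59 FPKM and, over both rows of Psmb9, 1.44 to 2.39 FPKM. Psmb10 was at 12.6 FPKM, and the proteasome activators Psme1 and Psme2 at 77.3 and 116 FPKM. Psmb8 was higher in 456wt than in 444wt by 1.75 ± 0.19 log2 units (limma adjusted p = 4.68e-05).

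Of the regulators, Nlrc5, the activator of class I genes, was at 0.453 ± 0.208 FPKM, and Ciita, the activator of class II genes, at 0.136 and 0.0100 FPKM in its 2 rows. The DNA-binding subunits Rfx5, Rfxap and Rfxank were at 10.3, 10.9 and 4.69 FPKM. Irf1, which acts below the interferon receptors, was at 19.4 FPKM, and the receptor chains Ifngr1 and Ifngr2 at 15.7 and 47.4 FPKM. The ligand Ifng was at 0.0242 FPKM. Nlrc5 was at 0.607 FPKM in 186wt, 0.25 in 343wt, 0.300 in 444wt and 0.657 in 456wt (limma adjusted p = 0.0265). Its call was lost without 186wt or 343wt (adjusted p = 0.0672 and 0.105), and without library 2 of 186wt or library 2 or 3 of 343wt (0.0559 to 0.0618).

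Cd74, the invariant chain that guards class II molecules before loading, was at 3.23 FPKM in 186wt, 3.71 in 343wt, 0.940 in 444wt and 3.70 in 456wt. It was higher in 343wt than in 444wt by 1.89 ± 0.17 log2 units (limma adjusted p = 5.22e-06), and the protease Ctss, which degrades it, by 1.99 ± 0.17 (adjusted p = 2.92e-06). Without 444wt, Cd74 was no longer called (adjusted p = 0.501) and Ctss was. H2-Aa was likewise lowest in 444wt. The macrophage list was lowest there too: 14 of 14 markers found had their lowest sample mean in 444wt, and their sum was 31.2 FPKM in 186wt, 63.9 in 343wt, 15.3 in 444wt and 54.3 in 456wt. None of the 14 was at 0 in all libraries, and the lowest, Lyz1, averaged 0.0233 FPKM over the 4 sample numbers. The Leydig list (6 of 6 lowest in 444wt) and the endothelial list (7 of 7) had the same lowest sample number, as did the Sertoli sum (2377 FPKM, 4 of 9 markers lowest there) and the T cell sum (1.14 FPKM, 2 of 5). The dendritic and B cell sum was 1.38 FPKM in 444wt against 1.37 to 1.63 in the others. The peritubular myoid sum was not lowest in 444wt, at 670 FPKM against 533 in 186wt, 253 in 343wt and 1112 in 456wt. Of the myoid markers 0 of 5 were lowest in 444wt. Germ cell markers were highest in 444wt, with 8 of 8 for meiotic prophase (519 FPKM) and 6 of 7 for spermatogonia (742 FPKM). The part of these lists in H2-Aa, Cd74, Ctss and B2m was not tested. The class II sum was 8.24 FPKM in 444wt against 7.85 to 8.89 in the others, and its largest members were H2-Ab1 and H2-DMa (means of 3.34 and 2.35 FPKM). The ratio of Cd74 to the class II sum was 0.114 in 444wt and 0.411 to 0.461 in the others. The relation of this sum to the marker lists was not tested.

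**Figure D4:**
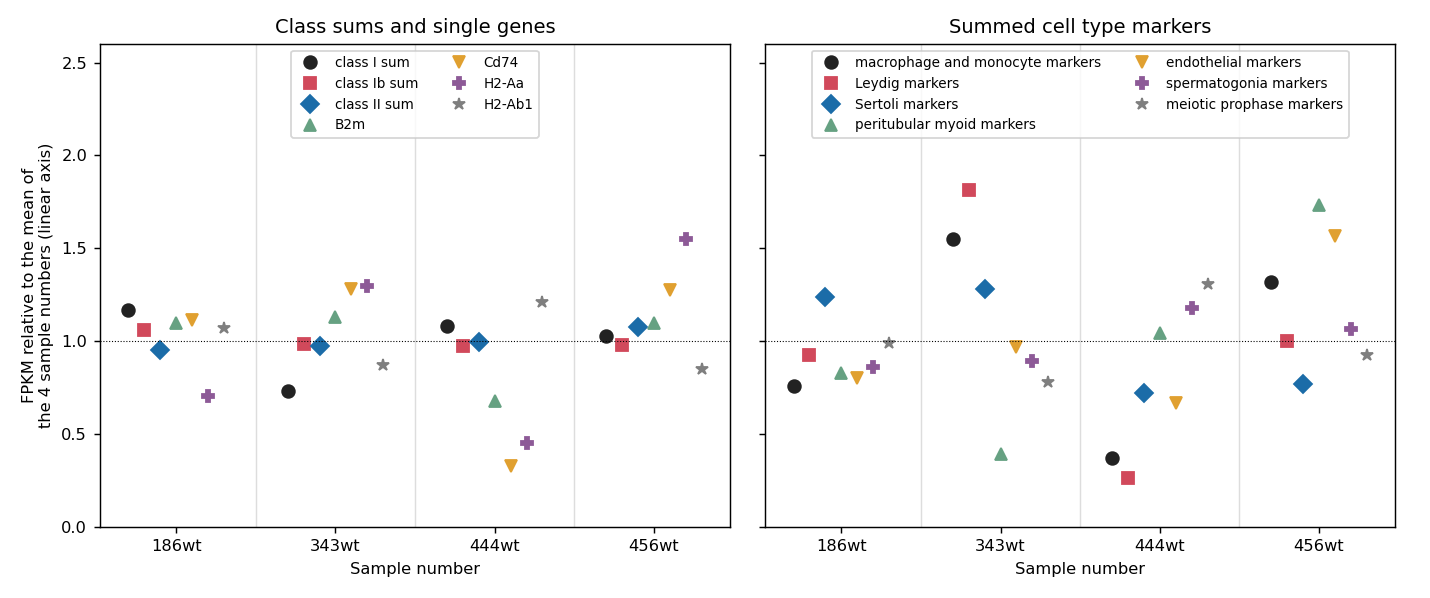
FPKM relative to the mean of the 4 sample numbers (linear axis from 0) for class sums, B2m, Cd74, H2-Aa and H2-Ab1 (left) and for summed marker lists of 7 cell types (right). Cd74, H2-Aa, B2m and the macrophage, Leydig, Sertoli and endothelial sums have their lowest point in 444wt, where the meiotic prophase and spermatogonia sums have their highest. The peritubular myoid sum is lowest in 343wt and highest in 456wt. The class I sum is lowest in 343wt, and the class Ib and class II sums stay close to their mean.

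Among class I-like genes outside the H2 symbols, Fcgrt, the neonatal Fc receptor, was at 8.15 FPKM in 186wt and 18.3 in 456wt, a difference of 1.16 ± 0.07 log2 units (limma adjusted p = 8.64e-08). Hfe, which regulates iron uptake, was at 26.2 FPKM in 343wt and 12.1 in 444wt, a difference of 1.11 ± 0.04 (adjusted p = 4.31e-09). Mr1, which presents vitamin metabolites, was at 8.47 FPKM in 456wt and 4.45 to 5.43 in the others, and was not called without 456wt (adjusted p = 0.133). Cd1d1, which presents lipids, was at 2.03 ± 0.212 FPKM (SD, n = 4) and was not called (adjusted p = 0.485).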

How the data were processed

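RNA-seq of 12 libraries was used of the 21 samples of the series. The authors aligned 100-base reads to the NCBIm37 transcriptome with Bowtie 0.12.9 and deposited gene FPKM from RSEM 1.2.8, rounded to 2 decimals. Library sums were 477629 to 485096 FPKM. No counts were used, and the strand setting is not given in the sources used here.

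The members and lists were chosen with earlier results of these data known. The 3 libraries of a sample number were averaged. Text names each class I and class II member, class Ib and other members at 1 FPKM or more, the class Ib member of widest log2 range, and genes of the lists; a few low members named as counts of 5 or fewer were chosen after their values were seen. Differences between sample numbers were tested with limma 3.58.1 (R 4.3.3, moderated F-test with trend) for genes whose mean reached 0.1 FPKM, on log2(FPKM + 0.1), which understates changes of low genes, and Benjamini-Hochberg adjustment over all 20795 tested. SE are of the difference of the highest and lowest sample number, while adjusted p are of the F-test over all numbers. No pair of sample numbers was tested by itself. Depth was estimated per library from genes with 1 transcript of 300 to 500 bases, by regressing the inverse of the lowest values on length (SE 0.197 to 0.361 M fragments), and intervals cover counting error only. Gene positions are from GENCODE M1 (mm9) and promoter letters from RefSeq windows (GRCm38.p6). Where a gene had several windows any match counted, and for H2-K1 the window of lower coordinate is shown. Identity and shared words came from M1 transcripts. Proteins were not used here. Alternatives were other pseudocounts, filters, scalings, summaries of a class, a block, and leaving out libraries or sample numbers.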

Additional observations from a re-analysis of the deposited data

Results flagged for a closer look

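Among 68 values examined (members and list genes at 0.1 FPKM or more, class sums and ratios), 7 had a sample number that stood apart from the other 3. About 1 in 20, or 3.4 values, would by chance if the values were independent. They are not, since the sums and ratios hold members that were also examined, so an excess over chance is not shown. Of the members, H2-DMb1 stood at 0.827 FPKM in 456wt against 0.193 to 0.223 in the others, and H2-Ke6 at 17.6 FPKM in 343wt against 24.7 to 25.4. Of class I assembly, B2m stood at 52.0 FPKM in 444wt against 84.5 to 87.0, Tap2 at 3.22 FPKM in 456wt against 2.13 to 2.31, and Tapbpl at 3.75 FPKM in 456wt against 2.90 to 2.97. The class Ib sum stood at 85.4 FPKM in 186wt against 78.6 to 79.2. The log2 ratio of class I to class Ib stood at 0.34 in 343wt against 0.84 to 0.92.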

How the results depend on the processing

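The count of called members was 12, and 10 to 12 when a library was left out (55.0% to 56.7% of all genes tested). It was 8 to 13 when a sample number was left out (47.7% to 54.3% of all genes). Under 7 other settings it was 10 to 12 (43.6% to 77.6% of all genes). The members tested ranged from 17, at a mean of at least 1 FPKM, to 37, with every gene above 0. Members outside the 12, such as H2-Ob, H2-Q5, H2-Eb1 and H2-Q6, were gained under some alternatives, so equal counts need not be the same members. The lowest count, 8 of 26 tested, came without 343wt (50.2% of all genes), where H2-D1, H2-Q4, H2-Ke6 and H2-DMb1 were no longer called. Without 444wt, H2-Ab1 and H2-Q2 were no longer called. H2-DMb1 lost its call under 17 of 23 alternatives and H2-T22 under 7. Antigen presentation genes gave 25 calls, and 20 to 25 under the alternatives, beside the same shares of all genes. The fewest, 20 of 34, came without 456wt (50.8% of all genes). Without 444wt, B2m and Cd74 were no longer called. Some genes outside the 25, such as Rfxank, were gained under some alternatives. With the library number as a replicate block, 12 members and 24 antigen presentation genes were called, and 56.6% of all genes tested. The library numbers did not pair the libraries (r of -0.041 to 0.030 for the same number, -0.034 to 0.040 for different numbers). The 3 class ratios kept their sign under all alternatives run. With a sample number left out, the log2 ratio was 3.93 to 4.17 for class I over class II, 0.70 to 0.89 for class I over class Ib and 3.23 to 3.33 for class Ib over class II, with p = 0.25, the smallest exact value for 3. Medians of members gave 6.25, 5.14 and 1.11, and class II without H2-DM and H2-O genes gave 4.69 and 3.93 for the ratios to class II. Rescaling libraries to a common total multiplied FPKM by 2.06 to 2.09 and changed no highest or lowest sample number of a called member. Depth limits members below 0.1 FPKM, where single fragments set the values.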
